A study of Homo sapiens with 9 samples.

Results

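EIF4G2 encodes a member of the eIF4G scaffold family, and its mRNA was among those that fell most after transfection of a miR-1229-3p mimic into SH-Sy5y cells, a human neuroblastoma cell line. It was chosen here because of that fall, so its own values are a description without a test. It is set beside 9 genes picked by what their products do at the mRNA cap: the paralogues EIF4G1 and EIF4G3, the cap-binding protein gene EIF4E, the helicase genes EIF4A1 and EIF4A2, the helicase cofactor genes EIF4B and EIF4H, and the eIF4E inhibitor genes EIF4EBP1 and EIF4EBP2. All 10 were found among the 14943 genes of the count table, and all 10 entered the fit across all genes, from which p-values are given for the other 9 alone. The question was whether EIF4G2 mRNA fell alone, or whether the mRNAs of its paralogues and partners moved with it or against it.

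The libraries formed 3 groups of 3. Control cells (Ctrl.) received 40 pmol of a negative control oligonucleotide, whereas the 10 nM group received 20 pmol of it together with 20 pmol of miR-1229-3p mimic. In the 20 nM group the mimic made up all 40 pmol, and the negative control was at 0 pmol. The 20 nM comparison with Ctrl. therefore joins the presence of the mimic to the absence of the control oligonucleotide. RNA was taken 48 h after transfection with a lipid reagent, and polyadenylated RNA was sequenced. Where possible a library's RNA was pooled from a pair of culture wells.

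Translation of most mRNAs begins with eIF4F, a complex on the cap at the 5′ end. eIF4E holds the cap, eIF4G is the scaffold that recruits eIF3 and the small ribosomal subunit, and eIF4A unwinds the leader with help from eIF4B or eIF4H. The 4E-BP proteins occupy eIF4E and keep the scaffold away. EIF4G2, also called DAP5, resembles the part of EIF4G1 that binds eIF4A and eIF3 but lacks the eIF4E-binding part, and is known for supporting initiation that does not depend on eIF4E. A microRNA lowers mRNAs whose 3′ untranslated region (UTR) pairs with its seed.

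The seed matches are shown first, since the members differ most clearly in them. Below are the mature microRNA (RefSeq, GRCh38.p14, capitals for seed bases 2 to 8) and the UTR windows of EIF4G2, of its paralogue EIF4G3 and of the inhibitor gene EIF4EBP2 (hg38 transcripts of GENCODE 44, capitals for the match), each 5′ to 3′ on the strand of the transcript.
miR-1229-3p: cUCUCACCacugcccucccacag
EIF4G2: tgaaacaaatGGTGAGAAtttgaattgg
EIF4EBP2: cagatcccagGGTGAGAgtaacaggcc
EIF4G3: acgagagagaGTGAGAgagtgtgtgt

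Motifs were searched on the transcript strand only: the 8-mer GGTGAGAA, the 7-mers GGTGAGA (bases 2 to 8) and GTGAGAA (bases 2 to 7 and an A), and the 6-mer GTGAGA. Each place was counted under its longest form. EIF4G2 was the one member with an 8-mer, at chr11:10797169-10797176 on the minus strand, 640 bases into a UTR of 766 bases and 119 bases before its end. All 4 of its annotated protein-coding transcripts with a 3′ UTR carried a 7-mer or 8-mer there. Of 13778 genes with a UTR of at least 50 bases, 4.61% had an 8-mer, and 22.6% had a 7-mer or an 8-mer. Among the 1396 genes whose UTR was within 20% of the length of that of EIF4G2, 9.31% had a 7-mer or 8-mer. EIF4EBP2 had a 7-mer at chr10:70423594-70423600 on the plus strand, in a UTR of 6871 bases and 5018 bases before its end. EIF4G3, EIF4E and EIF4B had 6-mers only (1, 1 and 2), a form found as the strongest in 15.8% of genes. EIF4G1, EIF4A1, EIF4A2, EIF4H and EIF4EBP1 had none of the 4 forms. A match is a description of letters and does not show that it is used. The study also lists EIF4G2 among putative targets of this microRNA that fell, so its match is no separate evidence.

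**Figure D1:**
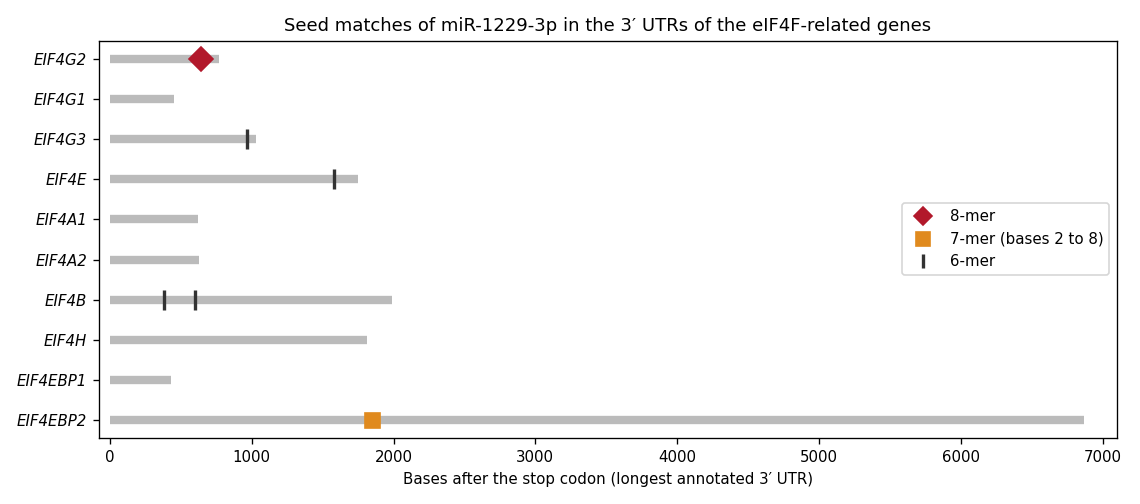
Grey bars give the longest annotated 3′ UTR of each gene in bases after the stop codon, and symbols mark the seed matches of miR-1229-3p. EIF4G2 carries 1 8-mer, EIF4EBP2 1 7-mer, and EIF4G3, EIF4E and EIF4B carry 6-mers.

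Library totals ran from 17423969 to 28192775 estimated counts, and the lowest estimated count of any member in any library was 1511 (EIF4E in 10 nM replicate 3). Counts of every pair of libraries of 1 group differed by more than sampling noise (chi-square per degree of freedom 4.69 to 46.5), and all 9 were treated as separate samples. The labels do not say whether replicates were separate cultures, so p-values measure the spread between these libraries, which may be technical. One library stood apart, 20 nM replicate 3, which lay at 47.4 on the first principal component (30.4% of the variance) with the other 8 between -17.1 and 7.72. Values without it are given beside the results it touches most. In bulk RNA, fewer cells of a kind and less RNA per cell cannot be told apart. Of 11 noradrenergic neuroblastoma markers all were measured, with summed levels of 6858 to 6980 CPM in Ctrl., 7164 to 7746 at 10 nM and 6832 to 8135 at 20 nM, although TH was near 0 (0.598 CPM in Ctrl.). A sum follows its most abundant markers, so it does not show that each marker kept its level. Mesenchymal or fibroblast markers (6 of 7 measured, PRRX1 not among them) summed to 139 to 175, 128 to 161 and 135 to 165 CPM, and 1 of them, CD44, was higher at 20 nM (from 1.36 to 3.18 CPM). Of 11 symbols of interferon response genes, 8 were measured, with sums of 99.1 to 115, 105 to 108 and 107 to 118 CPM, and 0 of 8 passed at 10 nM or 20 nM by edgeR or DESeq2 (edgeR had 0 and 2 of 8 at an unadjusted p under 0.05). Beside these counts, edgeR called 0.649% of all genes at 10 nM and 13.9% at 20 nM, and DESeq2 1.46% and 12.2%. The part of these markers in the results was not tested.

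EIF4G2 (ENSG00000110321, GRCh38.p14 chr11:10797050-10808940, minus strand) was one of the more abundant mRNAs of these cells, at rank 48 of the 14943 genes by its mean in Ctrl. Levels are given in CPM, the read count of a gene scaled to its library's size with TMM. It stood at 1125, 1132 and 1161 CPM in Ctrl. replicates 1 to 3, at 621, 652 and 684 CPM at 10 nM, and at 489.5, 536 and 443 CPM at 20 nM. The groups did not overlap with each other at any step. The mean was thus 57.2% of the control level at 10 nM and 42.9% at 20 nM. The fitted log2 fold change was -0.79 at 10 nM (95% interval -0.91 to -0.67), -1.16 at 20 nM (-1.30 to -1.02) and -0.37 from 10 to 20 nM (-0.50 to -0.24), so 67.9% of the log2 change at 20 nM was present at 10 nM. Among 10509 genes with a mean of at least 10 CPM it had the third lowest log2 fold change at 10 nM and the second lowest at 20 nM, which are the values it was chosen by. The annotated coding sequence of EIF4G2 begins with GTG in its longest-UTR transcript, whereas those of the other 9 genes begin with ATG.

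**Figure D2:**
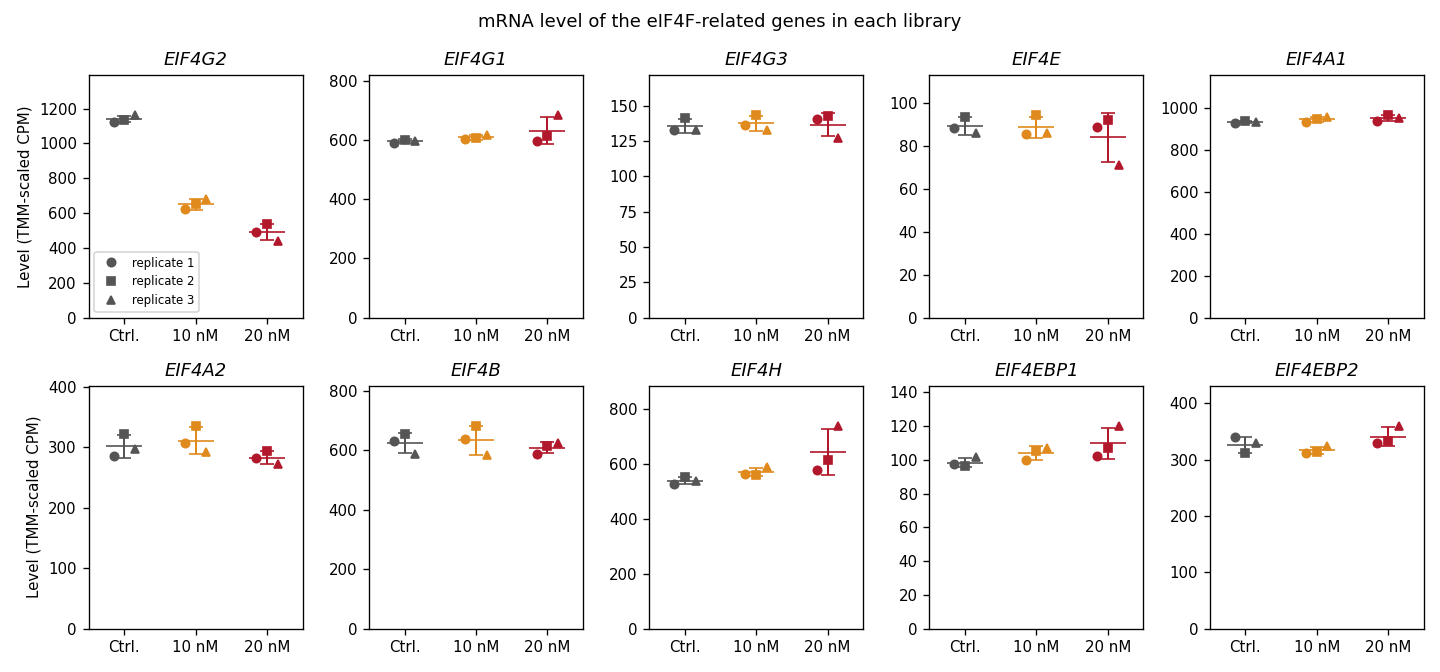
TMM-scaled CPM of each gene in each library, on linear axes from 0, with symbols for the replicates and bars for the mean and SD (n = 3). EIF4G2 steps down from 1140 to 652 and 489 CPM, and the other 9 genes stay near their control level, apart from wider spread at 20 nM where replicate 3 stands off.

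None of the other 9 genes passed the test at 10 nM or at 20 nM. A gene was called a DEG, differentially expressed, where its Benjamini-Hochberg adjusted p over all genes was under 0.05 in edgeR's quasi-likelihood fit, which carried 1 surrogate variable. At 10 nM, 0 of 9 were DEGs and 0 of 9 had an unadjusted p under 0.05, beside 0.649% of all genes called (0.221% higher and 0.428% lower). At 20 nM it was again 0 of 9, with 1 of 9 at an unadjusted p under 0.05, beside 13.9% of all genes (7.8% higher and 6.08% lower). From 10 to 20 nM it was 0 of 9 by adjusted and 0 of 9 by unadjusted p, beside 2.79% of all genes (1.91% higher and 0.883% lower). The log2 fold changes of the 9 lay between -0.06 and 0.06 at 10 nM (median 0.03, all genes 0.00) and between -0.06 and 0.13 at 20 nM (median 0.02, all genes 0.00). A p that misses the threshold does not show that a gene did not change. In this fit the 95% intervals at 20 nM reached at most 16.5% above and 13.4% below the control level for any of the 9. The bound holds for this fit alone: in uncorrected CPM the EIF4H mean at 20 nM was 19.6% above Ctrl. By DESeq2, 1 of the 9 (EIF4H) passed at 20 nM, and 0 at 10 nM and from 10 to 20 nM. DESeq2 called 12.2%, 1.46% and 3.16% of all genes in these comparisons. Without 20 nM replicate 3, EIF4H passed at 20 nM, and EIF4A2 and EIF4B were lower at 20 nM than at 10 nM, as described below.

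**Figure D3:**
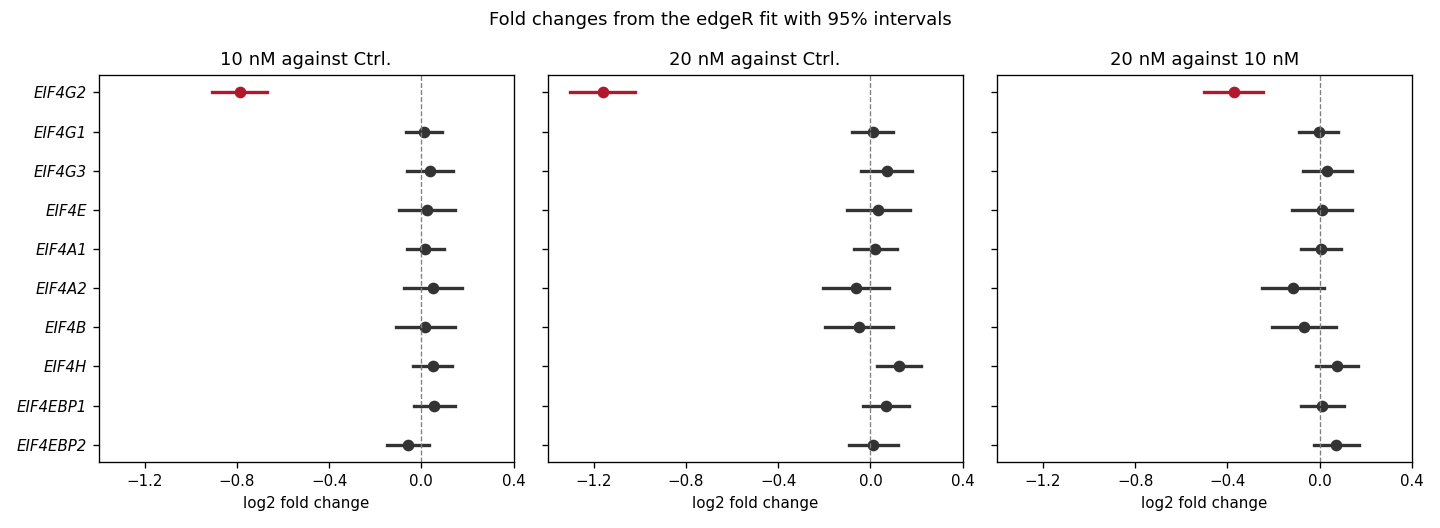
Log2 fold changes of the 10 genes from the edgeR fit (points) with 95% intervals (bars) for 3 comparisons. EIF4G2 lies at -0.79, -1.16 and -0.37, and the intervals of the other 9 genes include 0, except that of EIF4H at 20 nM, which runs from 0.03 to 0.22.

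The paralogues come first. EIF4G1 is the main eIF4G scaffold and EIF4G3 a close relative of it, and both bind eIF4E. EIF4G1 (chr3:184314495-184335358) was at 588, 599.96 and 598 CPM in Ctrl., at 602, 607 and 617 CPM at 10 nM, and at 596, 614 and 683 CPM at 20 nM. Its 10 nM libraries all lay just above the controls, its 20 nM libraries overlapped with them, and the 20 nM value of 683 came from replicate 3. The fitted log2 fold change was 0.01 at both concentrations (95% interval -0.06 to 0.09 at 10 nM and -0.08 to 0.10 at 20 nM, adjusted p = 0.906 and 0.915 by edgeR). The upper bound at 20 nM was 7.11% above the control level in this fit, but without surrogate variables the log2 fold change of EIF4G1 at 20 nM was 0.08 (adjusted p = 0.443 by edgeR). EIF4G3 (chr1:20806292-21177285) was at 132, 141 and 133 CPM in Ctrl., at 136, 143 and 133 CPM at 10 nM, and at 140.2, 142 and 127 CPM at 20 nM. The 3 groups overlapped throughout. Its log2 fold change was 0.04 at 10 nM (-0.06 to 0.14, adjusted p = 0.757 by edgeR) and 0.07 at 20 nM (-0.04 to 0.18, adjusted p = 0.413 by edgeR).

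The summed level of the family, taken per length, was lower in all mimic libraries. Counts were divided by the exon length of the canonical transcript, 3794 bases for EIF4G2, 5405 for EIF4G1 and 6397 for EIF4G3. The sum of the 3 paralogues went from 432 ± 5.75 CPM per kilobase in Ctrl. at 10 nM to 306 ± 9.35 and at 20 nM to 267 ± 8.7 (SD, n = 3), so 70.9% and 61.9% of it were left. EIF4G2 made up 69.6% ± 0.407 of this sum in Ctrl., 56.2% ± 0.983 at 10 nM and 48.3% ± 3.42 at 20 nM. In CPM, EIF4G2 lost 487 at 10 nM and 650.2 at 20 nM, while EIF4G1 and EIF4G3 together moved from 731 ± 10.3 to 746 ± 6.59 and 767 ± 38.2, a difference of 15.4 and 36.8 CPM. These are differences of uncorrected CPM, and 20 nM replicate 3 gave the highest summed value (810.02 CPM). Without it the difference at 20 nM was 15.5 CPM. The level of EIF4G2 per kilobase was 2.73 ± 0.0393 times that of EIF4G1 in Ctrl., 1.53 ± 0.0544 times at 10 nM and 1.11 ± 0.167 times at 20 nM, and in 20 nM replicate 3 it was below it (0.924). The share depends on the length used: without division by length it was 60.9%, 46.6% and 38.9%, and with the bases of all annotated exons 62.8%, 48.6% and 40.8%. EIF4G2 was chosen from its fall, so the falling share is a description.

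**Figure D4:**
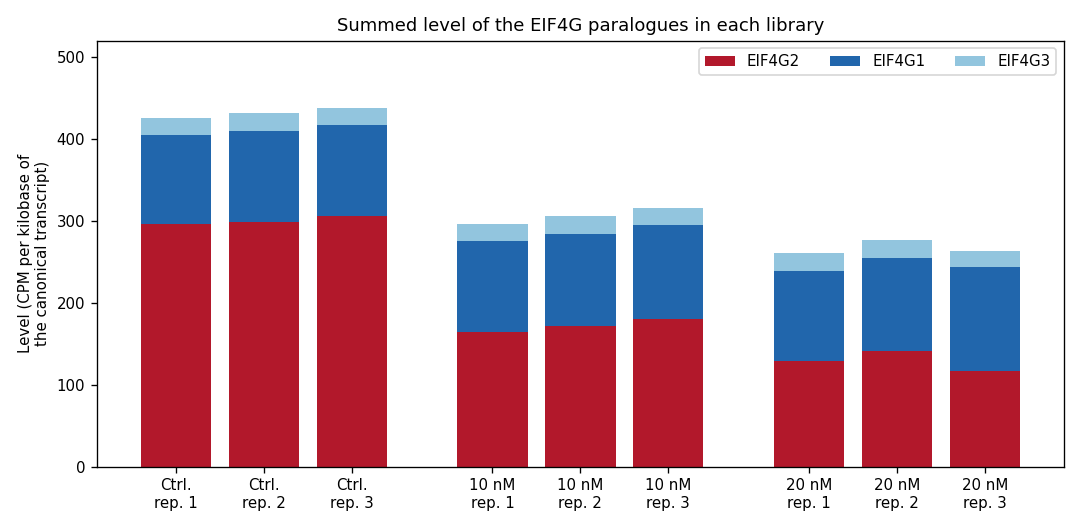
Stacked bars give the CPM per kilobase of canonical transcript of EIF4G2, EIF4G1 and EIF4G3 in each of the 9 libraries, on a linear axis from 0. The EIF4G2 segment shrinks from 69.6% of the sum in Ctrl. to 48.3% at 20 nM, and the segments of EIF4G1 and EIF4G3 keep about the same height.

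EIF4E, the cap-binding subunit, was at 88.5, 93.8 and 85.98 CPM in Ctrl., at 85.8, 94.5 and 86.4 CPM at 10 nM, and at 89.1, 92.2 and 71.2 CPM at 20 nM. All but 1 library lay between 85.8 and 94.5 CPM, and the low one was 20 nM replicate 3. The log2 fold change of EIF4E was 0.03 at both concentrations (95% interval -0.09 to 0.15 and -0.10 to 0.17, adjusted p = 0.877 and 0.780 by edgeR). Over 18 alternative fits its 20 nM value ran from -0.09 to 0.07, changed sign in 4 and passed in 0. EIF4A1 and EIF4A2 are closely related helicases. EIF4A1, the most abundant member per kilobase, was at 929, 941 and 936 CPM in Ctrl., at 934, 951 and 957 CPM at 10 nM and at 938, 967 and 953 CPM at 20 nM. Its whole range over 9 libraries, 929 to 967 CPM, was narrow, and its groups overlapped. The log2 fold change of EIF4A1 at 20 nM was 0.02 (-0.07 to 0.11, adjusted p = 0.804 by edgeR). The table also holds the readthrough gene SENP3-EIF4A1, and the helicases are near copies, so reads between these genes may have been split. EIF4A2 was at 286, 322 and 296 CPM in Ctrl., at 306, 335 and 291 CPM at 10 nM, and at 282, 294 and 272 CPM at 20 nM. In each group replicate 2 was the highest, and the groups overlapped. For EIF4A2 the log2 fold change was 0.05 at 10 nM (adjusted p = 0.727 by edgeR), -0.06 at 20 nM (adjusted p = 0.589 by edgeR) and -0.12 from 10 to 20 nM (adjusted p = 0.435 by edgeR). Without 20 nM replicate 3 the last was -0.12 with an adjusted p = 0.0175 by edgeR, in a fit that then used 2 surrogate variables (0.288 with 1).

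EIF4B and EIF4H both stimulate the helicase. EIF4B (ENSG00000063046) was at 633, 656 and 588 CPM in Ctrl., at 637, 682 and 585 CPM at 10 nM, and at 588, 615 and 626 CPM at 20 nM, and the groups overlapped. The fitted change of EIF4B on the log2 scale was 0.02 at 10 nM and -0.05 at 20 nM (adjusted p = 0.921 and 0.688 by edgeR). From 10 to 20 nM it was -0.07 (adjusted p = 0.700 by edgeR), and -0.10 without 20 nM replicate 3 (adjusted p = 0.0264 by edgeR, 0.318 with 1 surrogate variable). EIF4H (chr7:74174231-74197122) was the 1 member of the 9 that passed in the reported fits. It was at 525, 552 and 536 CPM in Ctrl., at 561, 560.1 and 588 CPM at 10 nM, and at 579, 614 and 737 CPM at 20 nM. All 6 mimic libraries lay above all 3 controls, and 20 nM replicate 3 was the highest by far. The log2 fold change was 0.05 at 10 nM (adjusted p = 0.601 by edgeR) and 0.13 at 20 nM (SE 0.044, adjusted p = 0.0785 by edgeR). With the concentration fitted as a number, the trend was 0.17 per 20 nM (95% interval 0.08 to 0.26, adjusted p = 0.0124 by edgeR), in a comparison in which 17.6% of all genes were DEGs, 9.92% higher and 7.64% lower. Over 19 alternatives the adjusted p of this trend ran from 0.000561 to 0.264, and 14 passed. It missed the threshold without Ctrl. replicate 1 (0.0666), Ctrl. replicate 3 (0.0625) or 20 nM replicate 2 (0.106), with log2 fold changes of 0.15, 0.14 and 0.14. It also missed it without surrogate variables (0.26, adjusted p = 0.0666) and with the mimic as present or absent (0.08, adjusted p = 0.264). It stayed under the threshold without 20 nM replicate 3 (0.0313, log2 fold change 0.14). At 20 nM the change of EIF4H passed in 6 of 18 alternatives. Among these were the fits without 20 nM replicate 1 (adjusted p = 0.0251 by edgeR) and without replicate 3 (adjusted p = 0.000899 by edgeR, 0.0350 with 1 surrogate variable). Another had a term for each replicate number and no surrogate variables (0.25, adjusted p = 0.0431 by edgeR). The 20 nM change of EIF4H missed the threshold without 20 nM replicate 2 (adjusted p = 0.298 by edgeR) and without Ctrl. replicate 1, 2 or 3 (0.234, 0.0721 and 0.227). Without any 1 of the 10 nM libraries the adjusted p was 0.0762 to 0.107 by edgeR.

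The inhibitor genes close the list. EIF4EBP1 was at 97.7, 96.2 and 101 CPM in Ctrl., at 99.7, 105 and 107 CPM at 10 nM and at 103, 107 and 120.1 CPM at 20 nM. Its 20 nM libraries all lay above the controls, and its 10 nM libraries overlapped with them. The log2 fold change of EIF4EBP1 was 0.06 at 10 nM and 0.07 at 20 nM (adjusted p = 0.571 and 0.371 by edgeR), and its trend was 0.10 per 20 nM (adjusted p = 0.128). Without 20 nM replicate 1 the trend had an adjusted p = 0.0463 by edgeR. This was the 1 of 19 alternatives that passed, and the adjusted p of the others ran up to 0.383 (edgeR or DESeq2). EIF4EBP2 (chr10:70404145-70428618), which has the 7-mer, was at 340.2, 312 and 329 CPM in Ctrl., at 313, 314 and 324 CPM at 10 nM, and at 329.9, 334 and 359.8 CPM at 20 nM. The groups overlapped at both concentrations. Its log2 fold change was -0.06 at 10 nM (95% interval -0.15 to 0.03, adjusted p = 0.563 by edgeR) and 0.01 at 20 nM (-0.09 to 0.12, adjusted p = 0.902 by edgeR), so a fall of EIF4EBP2 by more than 6.15% at 20 nM lay outside the interval of this fit. Among the 9 genes, the 20 nM libraries of 2 (EIF4H and EIF4EBP1) lay all above the controls and those of the other 7 overlapped, beside 15.2% of all genes with all 3 above and 13.7% with all 3 below. At 10 nM it was also 2 genes above (EIF4G1 and EIF4H), beside 10.1% of all genes with all 3 above and 9.9% with all 3 below.

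Side by side within each library, the gap between EIF4G2 and the rest held in all 6 mimic libraries. As a percentage of the control mean, EIF4G2 stood between 54.5 and 60.01 at 10 nM and between 38.9 and 47.0004 at 20 nM. The lowest of the other 9 genes in any mimic library was EIF4E in 20 nM replicate 3, at 79.6%. The highest was EIF4H in the same library, at 137%. In the remaining 5 mimic libraries the 9 genes stayed between 93.5% and 114%. The order of levels per kilobase shifted with it. In Ctrl., EIF4A1 (532 ± 3.48 CPM per kilobase, n = 3) was followed by EIF4G2 (300.4 ± 5.1), EIF4H (209.9 ± 5.25), EIF4B (162 ± 8.99), EIF4A2 (159.8 ± 9.9), EIF4EBP1 (119 ± 3.3), EIF4G1 (110.1 ± 1.17), EIF4EBP2 (43.7 ± 1.91), EIF4E (36.8 ± 1.66) and EIF4G3 (21.2 ± 0.783). Of these neighbours EIF4B and EIF4A2 overlapped in Ctrl., and the others did not. At 20 nM, EIF4G2 (129 ± 12.2) had moved to the sixth place and overlapped with its neighbours EIF4EBP1 (133 ± 11) and EIF4G1 (117 ± 8.51).

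Beyond these genes, a wider list of 32 regulators and relatives of eIF4F was set out: inhibitors and kinases, poly(A)-binding proteins and their partners, and further cap-binding proteins. Of the 31 that were measured, 1 was a DEG at 10 nM (MTOR, lower), 3 at 20 nM (PDCD4 and PABPC4 higher, MTOR lower) and 5 in the dose trend. All genes were called at 0.649%, 13.9% and 17.6% in these comparisons, so the last 2 counts were not above the share of all genes. The trend added AKT1S1 (higher, 0.20, adjusted p = 0.0201) and EIF4E3 (lower, -0.28, adjusted p = 0.0451), named after their values were seen. Without 20 nM replicate 3 they were 0.18 (adjusted p = 0.0249) and -0.25 (adjusted p = 0.0968). The median log2 fold change at 20 nM was 0.02, beside 0.00 for all genes. PDCD4, an inhibitor that binds eIF4A and keeps it out of eIF4F, had the largest change. It was at 39.3, 42.8 and 34.9 CPM in Ctrl., at 44.4, 44.1 and 41.3 CPM at 10 nM, and at 73.1, 66.6 and 67.95 CPM at 20 nM. The 20 nM libraries all lay well above the other 6. Its log2 fold change was 0.17 at 10 nM (adjusted p = 0.329 by edgeR), 0.87 at 20 nM (SE 0.078, adjusted p = 2.78e-05 by edgeR) and 0.70 from 10 to 20 nM (adjusted p = 0.000244 by edgeR). The PDCD4 UTR of 1918 bases held none of the 4 seed forms. The change of PDCD4 at 20 nM passed in all 18 alternatives (edgeR or DESeq2 adjusted p up to 0.000668).

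PABPC4, a cytoplasmic poly(A)-binding protein, rose from 264 ± 10.7 CPM in Ctrl. to 305 ± 4.43 CPM at 20 nM, a log2 fold change of 0.23 (SE 0.050, adjusted p = 0.00944 by edgeR) that passed in 17 of 18 alternatives and missed the threshold without surrogate variables (0.0659). MTOR is the kinase that phosphorylates the 4E-BPs, and the study lists MTOR itself among putative targets that fell in these libraries. MTOR was at 131, 125 and 131 CPM in Ctrl., at 110.3, 117 and 113 CPM at 10 nM, and at 104, 106 and 134 CPM at 20 nM. All mimic libraries but 20 nM replicate 3 lay below the controls. The log2 fold change of MTOR was -0.23 at 10 nM (adjusted p = 0.0323 by edgeR) and -0.32 at 20 nM (adjusted p = 0.00102 by edgeR). The 10 nM change passed in 8 of 18 alternatives. It missed the threshold when any 10 nM library, Ctrl. replicate 1 or 3, or 20 nM replicate 1 or 2 was left out. It also missed it without surrogate variables (adjusted p = 0.891 by edgeR) and with a term for each replicate number in their place (0.533). Without 20 nM replicate 3 and with 1 surrogate variable the adjusted p was 0.0508 by edgeR. The 20 nM change of MTOR passed in 16 of 18. It missed the threshold without surrogate variables (adjusted p = 0.261 by edgeR) and with the replicate term (-0.18, adjusted p = 0.169 by edgeR). The MTOR UTR held 1 8-mer. CTIF, a scaffold of the nuclear cap-binding complex, had a log2 fold change of -0.18 at 20 nM (adjusted p = 0.0666 by edgeR). Without 20 nM replicate 3, 12 of the 31 were DEGs at 20 nM, in a fit that called 29.2% of all genes (5 of the 31 and 17.8% of all genes with 1 surrogate variable).

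**Figure D5:**
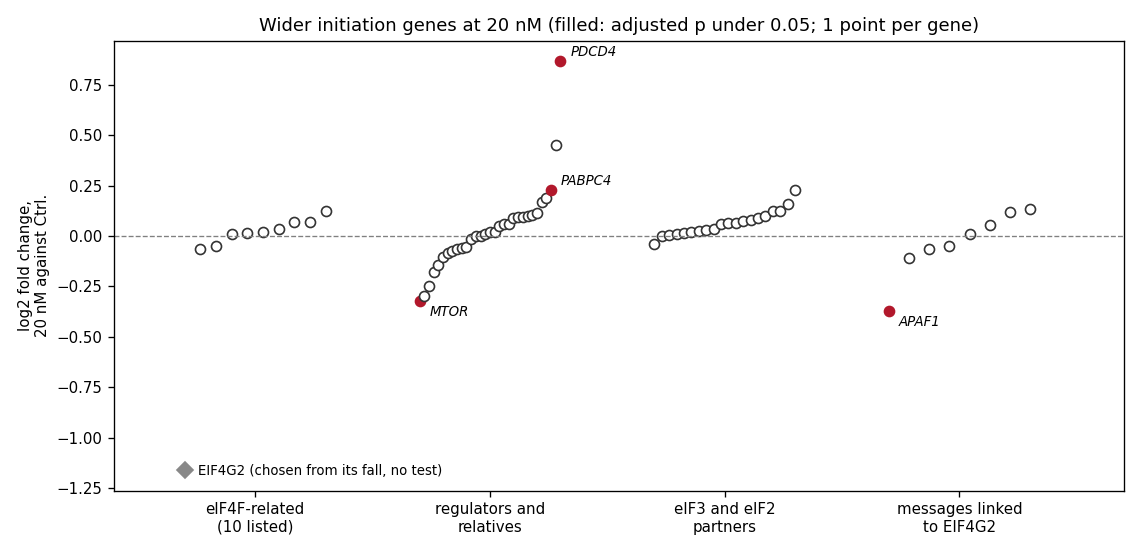
Each point is 1 gene, placed by its log2 fold change at 20 nM against Ctrl. within 4 lists and sorted within a list. Filled circles passed the edgeR test (PDCD4 and PABPC4 higher, MTOR and APAF1 lower), and the grey diamond is EIF4G2 at -1.16, which was not tested.

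The partners on the ribosome side were also described. Of 20 subunits of eIF3 and eIF2 and related factors, which meet eIF4G or follow it, 0 were DEGs at 10 nM and 0 at 20 nM (edgeR, 1 and 4 of 20 at an unadjusted p under 0.05, and 0 at both by DESeq2). Beside this, edgeR called 0.649% and 13.9% of all genes, and DESeq2 1.46% and 12.2%. The log2 fold change was positive for 18 of 20 at 10 nM (median 0.07) and 19 of 20 at 20 nM (median 0.06), with none above 0.23. At 20 nM this common sign depended on the fit: in uncorrected CPM the mean was above Ctrl. for 11 of 20 and below it for 9 of 20. At 10 nM uncorrected CPM gave 18 of 20 above and 2 of 20 below, the same count as the fit. The dose trend was positive for 13 and negative for 7. Messages also share the scaling of each library, so a common sign is no separate evidence. EIF3J, at 64.7 ± 4.57 CPM in Ctrl. and 67.6 ± 12.8 CPM at 20 nM, had the largest, 0.23 at 20 nM (adjusted p = 0.0703 by edgeR). EIF3K had 0.13 (adjusted p = 0.108 by edgeR), EIF2S1 0.16 (adjusted p = 0.155 by edgeR) and EIF1AX 0.12 (adjusted p = 0.155 by edgeR). In the dose trend 2 of 20 passed, beside 17.6% of all genes, EIF3B and EIF3G (log2 fold changes 0.14 and 0.13, adjusted p = 0.0302 and 0.0449 by edgeR), which were named after their values were seen, and without 20 nM replicate 3 neither did (0.10 and 0.07, adjusted p = 0.0753 and 0.233 by edgeR). In both, 20 nM replicate 3 was the highest library, at 485 CPM for EIF3B and 313 CPM for EIF3G. Without this library, 7 of 20 were DEGs at 20 nM, all higher, beside 29.2% of all genes called and 15.4% called higher (1 of 20 and 17.8% of all genes with 1 surrogate variable).

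Last came 8 messages whose translation has been linked to EIF4G2 or to initiation without the cap, with the limit that mRNA levels do not report translation. At 10 nM 0 of 8 were DEGs, beside 0.649% of all genes (edgeR, 2 of 8 at an unadjusted p under 0.05, and 0 by DESeq2). At 20 nM 1 of 8 was, beside 13.9% of all genes. This was APAF1, the scaffold of the apoptosome, which was at 51.7, 53.1 and 52.5 CPM in Ctrl., at 47.4, 47.9 and 47.7 CPM at 10 nM, and at 40.6, 39.9 and 34.7 CPM at 20 nM. The 3 groups of APAF1 did not overlap. Its log2 fold change was -0.12 at 10 nM (adjusted p = 0.297 by edgeR) and -0.37 at 20 nM (SE 0.055, adjusted p = 0.000823 by edgeR), and the latter passed in 18 of 18 alternatives. The APAF1 UTR of 2945 bases held none of the 4 seed forms. CDKN1B, XIAP and BIRC2 had log2 fold changes of 0.12, -0.11 and 0.13 at 20 nM (adjusted p = 0.112, 0.214 and 0.242 by edgeR). Without 20 nM replicate 3, 3 of 8 were DEGs at 20 nM, beside 29.2% of all genes (1 of 8 and 17.8% with 1 surrogate variable). CDK1, named after its values were seen, had a trend of -0.19 per 20 nM (adjusted p = 0.0251), with 20 nM replicate 3 at 49.8 CPM and the other 8 libraries between 86.01 and 102 CPM. Without that library the trend of CDK1 was -0.10 (adjusted p = 0.15).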

How the data were processed

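Reads were mapped by the authors with salmon to GRCh38.p13 and an Ensembl annotation, collapsed to genes, and filtered with filterByExpr. Tool versions and use of strand are not given in the sources used here. What they deposited is a gene table of estimated counts in 9 libraries (88.8% of values not whole). The authors' tables of comparisons (fold changes and p-values) and of values corrected for surrogate variables were not used.

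Estimated counts were rounded and fitted with edgeR 4.0.16 in R 4.3.3: TMM scaling, filterByExpr (which removed 0 genes), quasi-likelihood tests over all 9 libraries, and Benjamini-Hochberg adjustment over 14943 genes at 0.05. Surrogate variables came from sva 3.50.0 on log2 CPM (prior count 2), and num.sv (method be, seed 1) gave 1 by group and 1 by concentration. Other seeds gave 2 by concentration, which was tried as an alternative. Standard errors were taken as |log2 fold change| over the root of F, and 95% intervals use the moderated degrees of freedom. CPM are not corrected for surrogate variables, so ratios of CPM can differ from fitted fold changes. DESeq2 1.42.0 was an alternative, and others changed scaling, filter, covariates or libraries. Positions, lengths and UTRs came from GENCODE 44 (14105 genes matched by identifier, 768 by symbol, 70 not). The fits were tested on simulated counts with the same spread setting for every gene and no hidden or replicate effect. That test does not cover the use of surrogate variables or a library that stands apart.

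The members and lists were chosen with earlier results of these data known. Named genes were the 10 members and, per list, at most the 4 with the smallest adjusted p at 20 nM and MTOR, plus the 5 genes most and the 5 least correlated with EIF4G2 (mean of at least 10 CPM). Groups and replicate numbers came from the sample titles. A planned comparison of protein sequences was not run here, and 1 marker result is not reported here.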

Additional observations from a re-analysis of the deposited data

How the results depend on the processing

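EIF4G2 was lower in every alternative run. Its log2 fold change ranged from -0.83 to -0.74 at 10 nM, from -1.25 to -1.14 at 20 nM, -0.46 to -0.32 from 10 to 20 nM and -1.31 to -0.91 in the trend. Of 657 values of the other 9 genes under alternatives, 23 were past the threshold, and the largest log2 fold change in size was 0.26. Signs changed in 44 values that were past the threshold neither way.

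The number of these 9 past the threshold at 20 nM was 1 in place of 0 with the replicate block, with DESeq2's test and with genes of at least 10 CPM. In the trend it was 0 in place of 1 without surrogate variables and with the mimic as present or absent. With libraries left out in turn it ran from 0 to 0 at 10 nM, 0 to 1 at 20 nM, 0 to 2 from 10 to 20 nM and 0 to 2 in the trend. These left-out fits called 0.228% to 8.82% of all genes at 10 nM and 1.17% to 10% from 10 to 20 nM. Shares at 20 nM and in the trend are given below.

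Of the 31 regulators, without surrogate variables 1 passed at 20 nM (3 in the reported fit) and 2 in the trend (5 in the reported fit). In the trend it was 9 with genes of at least 10 CPM and 1 with the mimic as present or absent. Left-out libraries gave 3 to 12 at 20 nM and 4 to 9 in the trend. Of the 20 eIF3 and eIF2 partners, 1 passed at 20 nM with the block. In the trend (2 in the reported fit) 0 passed without surrogate variables and with the mimic as present or absent, and 1 with the block, 2 surrogate variables, DESeq2 size factors or library totals. Left-out libraries gave 0 to 7 and 0 to 5. Of the 8 messages linked to EIF4G2, 1 passed in the trend (2 in the reported fit) without surrogate variables and with the block, and 0 with the mimic as present or absent. Left-out libraries gave 1 to 3 at 20 nM and 1 to 3 in the trend. The share of all genes called at 20 nM was 13.9% in the reported fit and 6.38% without surrogate variables. It was 13.6% with the block, 12.2% by DESeq2 and 7.19% to 29.2% with libraries left out. In the trend it was 17.6% in the reported fit, 8.27% without surrogate variables and 16.4% with the block. With the mimic as present or absent it was 1.1%, and with libraries left out 9.16% to 22.2%. The cause of these shifts was not tested.

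The share of EIF4G2 in its family was 60.9%, 46.6% and 38.9% (Ctrl., 10 nM, 20 nM) without division by length and 62.8%, 48.6% and 40.8% with all annotated exons. With replicates left out it ran from 69.4% to 69.8%, 55.6% to 56.6% and 46.9% to 50.2%. Searching every annotated UTR left 2 members with a 7-mer or 8-mer. Using 2 surrogate variables in the trend, and all annotated exons, was chosen after seeing the data.

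Same-numbered libraries of different groups deviated together by 0.0288 to 0.185 (8 of 9 pairs over 0.1), other pairs by -0.17 to 0.0321, and 8 of 9 libraries correlated best with their own number. Since 1 same-numbered pair (10 nM and 20 nM replicate 2, 0.0288) was under 0.1, the reported fits carried no term for the number. That cut-off does not show that the libraries were unpaired. The lowest same-numbered value was positive, and 0 of 18 other pairs were over 0.1. With the block in place of surrogate variables, EIF4H passed at 20 nM (0.25, adjusted p = 0.0431 by edgeR), and MTOR passed neither at 10 nM (-0.19, adjusted p = 0.533) nor at 20 nM (-0.18, adjusted p = 0.169). The planned comparison of proteins was not run.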

Other observations

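The mRNAs that followed EIF4G2 most closely over the 9 libraries were named by the Pearson correlation of log2 CPM among 10508 genes with a mean of at least 10 CPM. This is a description, since the libraries share the 3 groups and EIF4G2 was chosen for its steps between them. ARL6IP1, a protein that shapes the endoplasmic reticulum, came first (r = 0.99 over 9 libraries) with 229 ± 5.81 CPM in Ctrl., 167 ± 10.3 CPM at 10 nM and 147 ± 3.52 CPM at 20 nM (SD, n = 3). IRGQ followed (r = 0.985), from 107 ± 3.09 to 84.5 ± 1.4 and 74.8 ± 2.96 CPM. MED1, a Mediator subunit, had r = 0.984 with a small step, from 119 ± 0.748 to 110 ± 0.755 and 105 ± 1.33 CPM. ATP6V1A, the catalytic subunit of the lysosomal proton pump, had r = 0.981 and went from 69.5 ± 1.56 to 58.6 ± 1.82 and 49.3 ± 2.2 CPM. ELAVL1, an RNA-binding protein that stabilises AU-rich messages, had r = 0.979 and went from 170.1 ± 1.98 to 153 ± 1.13 and 145 ± 5.85 CPM. Of these 5, 4 held a 7-mer or 8-mer seed match and MED1 held none of the forms, beside 22.6% of 13778 genes with a 7-mer or 8-mer. Their UTRs ran from 1583 bases (ARL6IP1) to 7659 bases (IRGQ). The genes were picked by following the steps of EIF4G2, so the count is no separate evidence.

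The opposite pattern was closest in URI1, a prefoldin-like protein (r = -0.986), with 77.1 ± 0.568 CPM in Ctrl., 89.3 ± 1.64 CPM at 10 nM and 101 ± 3.51 CPM at 20 nM. PCDHAC2, a protocadherin, had r = -0.981 and went from 48.4 ± 1.64 to 64 ± 2.4 and 73.9 ± 3.4 CPM. SCARB1, a receptor for high-density lipoprotein, had r = -0.973, the receptor kinase gene LTK r = -0.972 and RFLNB r = -0.97. Of these 5, 0 held a 7-mer or 8-mer, beside the same 22.6% of genes, in UTRs of 359 (LTK) to 3186 bases (RFLNB). No eIF4F-related gene was among the 10.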
